A study of Saccharomyces cerevisiae with 3 samples.

Results

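The nuclear pore complex is the channel through which proteins and RNA cross the nuclear envelope, and its subunits are called nucleoporins. The report covers 10 nucleoporin genes of Saccharomyces cerevisiae, the budding yeast, whose deletion haploids usually survive: NUP84, NUP120 and NUP133 of the Nup84 complex, NUP170, NUP157, NUP188 and NUP53 of the inner ring, NUP60 of the nuclear basket, and POM152 and POM34 of the membrane ring. They were chosen by gene symbol in the platform annotation, both tags and all arrays included. Of the 10 genes, 9 had probes under their symbol (78 of 18794 named probes), and 8 had a value on all 3 arrays, out of 5325 named and 5204 tested genes. NUP157 was not analysed here, since no probe carried its symbol, and NUP60 had a value for 2 of its 6 combinations of tag and array.

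Each deletion strain carries short DNA tags that identify it. Per the labels, a pool of 5896 heterozygous diploid deletion strains that can be turned into haploids was transformed with a URA3 cassette that replaces CIN8 (cin8D::URA3), the gene of a kinesin motor that pushes the spindle poles apart, and was then sporulated. Haploids grew for 2 days at 30 °C on minimal medium with 5-fluoroorotic acid (5-FOA), which selects cells without URA3 and gave the single mutants, or on minimal medium without uracil, which selects cells with URA3 and gave the double mutants. Experiments 1, 2 and 3 used 0.1, 0.15 and 0.2% 5-FOA, and each is 1 array with tags of the single mutants in Cy5 and tags of the double mutants in Cy3. The tags came from genomic DNA, although the records name total RNA.

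The deposited values are log2 ratios of the 2 pools. Which pool is the numerator was not given in the sources used here, so that signs are kept as deposited and neither side is tied to a pool. Strains of uracil biosynthesis (URA1, URA2, URA4 and URA5, from 2.70 to 5.54) and KIP1, the gene of the motor most like Cin8 (4.99), lay on the positive side, and CIN8 itself lay on the negative side at -2.23. Each array's median within a tag set was subtracted, and values were averaged over repeated spots and then over the 2 tags of a strain, called tag sets A and B. A strain was called where limma gave an adjusted p under 0.05 for its mean over the 3 arrays against 0. The single mutants of each experiment were selected at a different percentage of 5-FOA. Nothing in the labels says that the pools were otherwise made separately. The p-values thus cover the spread over the 3 arrays, in which 5-FOA and technical differences cannot be told apart.

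Nucleoporins assemble into stacked rings. The Nup84 complex is Y-shaped and builds the outer rings, the inner ring lines the membrane pore, the membrane ring anchors both in the nuclear envelope, and the basket reaches into the nucleus. Budding yeast divides with its nuclear envelope closed, so that the spindle forms inside a nucleus with intact pores. The checkpoint proteins Mad1 and Mad2 dock at the yeast pore outside mitosis, and Nup53, Nup170 and the basket proteins Mlp1 and Mlp2 have been tied to that docking.

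Among the chosen strains, the means of the 3 Nup84 complex strains ran from 1.35 to 2.13, and those of the 3 tested inner ring strains from -0.80 to 0.56. The subcomplexes were not tested against each other. POM152 stood at 1.28 and POM34 at -0.06. Limma called 3 of the 8 tested strains positive (NUP84, NUP133 and POM152) and 0 negative, and 6 had an unadjusted p under 0.05, all on the positive side. Of all 5204 strains 33.6% were called, 16.2% positive and 17.4% negative, and 2589 had an unadjusted p under 0.05 in either direction. The 3 called strains were all at least 2-fold from 0, and calls of that size on the positive side made up 5.34% of the whole table. Experiments differed in 5-FOA, and with its percentage as a covariate limma called 0 of the 8. NUP84, NUP133 and POM152 then had adjusted p from 0.0538 to 0.0576. In that limma fit 4 of the 8 had an unadjusted p under 0.05, beside 2225 of all 5204 strains. It called 228 strains in all, against 1748 without the covariate. The median of the 8 means was 0.92, and that of all tested strains was -0.10. A mean of 1 or more was reached by 4 of the 8 and by 310 of all strains.

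**Figure D1:**
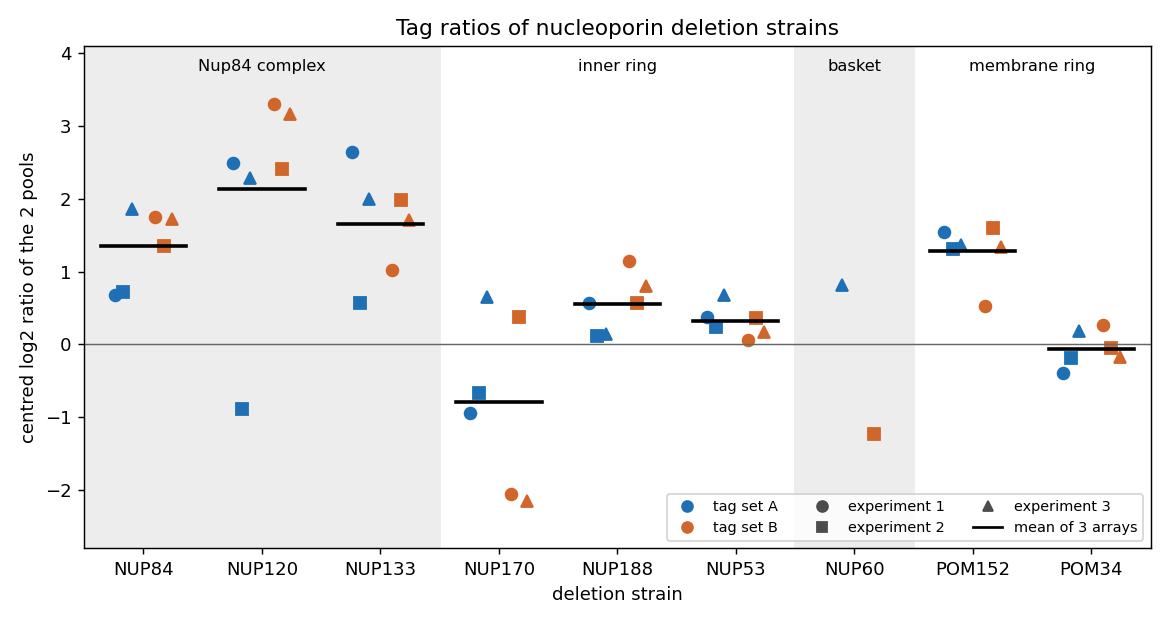
The plot shows the centred log2 ratio of each tag of 9 nucleoporin deletion strains, with the mean of the spots of a tag as 1 point, colour for the tag set, shape for the experiment and a line for the mean of the 3 arrays. All points of NUP84, NUP133 and POM152 lie above 0, 1 point of NUP120 lies at -0.88, and NUP60 has 2 points and no mean.

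NUP84 encodes a subunit in the stem of the Y. The NUP84 deletion strain gave log2 ratios of 1.22, 1.04 and 1.79 in experiments 1, 2 and 3. All 3 arrays were above 0, with experiment 3 the highest. The mean was 1.35 ± 0.39 (SD, n = 3), or 2.54-fold, and limma called it (adjusted p = 0.0229). Tag set B was steady, at 1.76, 1.35 and 1.72, and was called on its own in limma (adjusted p = 0.0117). Tag set A gave 0.67, 0.72 and 1.86, so that experiment 3 stood apart, and it was not called alone (adjusted p = 0.0658).

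NUP133 encodes the tip of the stem, which meets the nuclear membrane. The NUP133 strain gave 1.83, 1.28 and 1.85, with experiment 2 the lowest and all arrays above 0. The mean was 1.65 ± 0.33 (SD, n = 3), or 3.15-fold, and limma called it (adjusted p = 0.0149). Each tag of NUP133 had 1 spot per array. Tag set A gave 2.64, 0.57 and 2.00, and tag set B gave 1.02, 1.98 and 1.70. The array that was lowest in one tag was the highest in the other, and the average of the tags varied less (SD 0.33) than either tag (SD 1.06 and 0.49).

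NUP120 encodes a short arm of the Y. The NUP120 strain had the highest mean of the 8, 2.13 ± 1.19 (SD, n = 3), or 4.37-fold, and was not called (limma, adjusted p = 0.0571). Its arrays gave 2.89, 0.76 and 2.73. Experiment 2 lay far below the other arrays, and the 95% confidence interval of the mean ran from 0.57 to 3.69. The low array came from tag set A, which gave 2.49, -0.88 and 2.29. All 6 spots of tag set A were between -1.07 and -0.66 in experiment 2, and between 1.85 and 2.89 in experiments 1 and 3. Tag set B gave 3.30, 2.41 and 3.17, with experiment 2 again the lowest but above 2, and was called alone (limma, adjusted p = 0.0105). Without experiment 2 the mean was 2.81, and without experiment 1 or 3 it was 1.74 or 1.83.

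**Figure D2:**
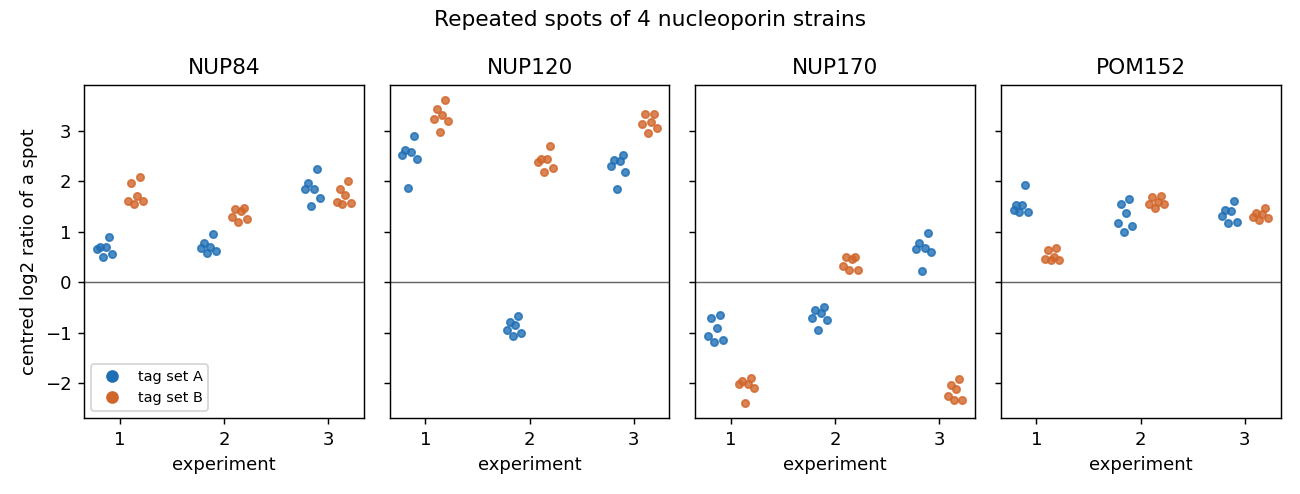
The panels show the centred log2 ratio of every spot of the NUP84, NUP120, NUP170 and POM152 strains by experiment, with 6 spots per tag set and array in colour. Spots of 1 tag on 1 array lie close together, whereas tag set A of NUP120 and tag set B of NUP170 change sign between experiment 2 and the other experiments.

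Repeated spots thus varied far less than arrays did for some tags. Across all tags with 5 or more spots, the median SD among spots of 1 array was 0.12. Over all 9418 tags measured on all arrays, whatever their number of spots, the median range over the 3 arrays was 0.46. An SD and a range are unlike measures, and these 2 come from unlike sets of tags. Tag set A of NUP120 had a range of 3.37 over the arrays beside a median spot SD of 0.24, and 3.79% of the 9418 tags measured on all arrays ranged at least as widely. Tag set B of NUP170 ranged over 2.53 (6.73% of tags) and tag set A of NUP133 over 2.07 (9.27%). At the other end, tag set A of POM152 ranged over 0.22 (81.9% of tags). Of the 937 tags with a range of 2 or more, experiment 2 lay farthest from the median of the arrays in 384, experiment 1 in 295 and experiment 3 in 258. What sets a wide range was not tested.

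The order of the 3 Nup84 complex strains was not settled, since 3 arrays leave the test of a pair no way to pass 0.05. The difference of NUP84 minus NUP133 was -0.31 ± 0.28 (SD, n = 3), negative on all 3 arrays (exact sign-flip permutation test, two-sided, p = 0.25, the smallest that 3 arrays allow). NUP84 minus NUP120 was -0.78 ± 0.99 and NUP120 minus NUP133 was 0.47 ± 0.86, each with 1 array of the opposite sign (exact sign-flip permutation test, p = 0.5 for both). In all, 6 pairs of strains were compared, and with p-values adjusted over them the smallest was 0.375 in these exact permutation tests.

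NUP85, which encodes another subunit of the Y complex and was not among the 10, also had a positive ratio. NUP85 gave 1.63, 2.50 and 2.36, with a mean of 2.16 ± 0.47 (SD, n = 3), and was called (limma, adjusted p = 0.0154) as well as by each tag alone. Of the other Y complex genes, SEC13, whose product also coats vesicles, was called at -0.75 ± 0.27 (limma, adjusted p = 0.0365), and NUP145 stood at -0.41 ± 1.07 with no call. SEC13 and NUP145 are essential genes, and each had 1 of 6 values empty. SEH1 had no probe under its symbol.

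None of the 3 tested inner ring members was called. NUP188 encodes a large scaffold protein of the inner ring. The NUP188 strain gave 0.86, 0.35 and 0.47, with a mean of 0.56 ± 0.27 (SD, n = 3) that was not called (limma, adjusted p = 0.0609). All 6 of its tag values were positive. Tag set B (1.14, 0.57 and 0.80) lay above tag set A (0.57, 0.12 and 0.15) on every array, by 0.56 ± 0.10, and this difference was not called either (limma, adjusted p = 0.0938, unadjusted p = 0.0142).

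NUP53 encodes a membrane-binding inner ring protein. The NUP53 strain gave 0.22, 0.31 and 0.42, a narrow span, with a mean of 0.32 ± 0.10 (SD, n = 3) and no call (limma, adjusted p = 0.0813). All 6 of its tag values were positive, from 0.06 to 0.68. Values above 0 in all 6 combinations were also found in 25.2% of the 4293 strains that had all 6 values. ASM4, the paralogue of NUP53 that is also known as NUP59, gave 0.88, 0.67 and 0.81 and was called at 0.79 ± 0.10 (limma, adjusted p = 0.0181). NUP53 lay below ASM4 on all 3 arrays, by 0.66, 0.37 and 0.39 (difference -0.47 ± 0.16; exact sign-flip permutation test, two-sided, p = 0.25).

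NUP170 encodes an inner ring scaffold protein that binds the membrane ring, and loss of it is known to raise chromosome loss in yeast. The NUP170 strain was the lowest of the 8, with -1.50, -0.15 and -0.75, a mean of -0.80 ± 0.68 (SD, n = 3) and no call (limma, adjusted p = 0.129). Every array was below 0, but the tags were not. Tag set A gave -0.94, -0.67 and 0.66, and tag set B gave -2.06, 0.38 and -2.15. Experiment 3 was thus positive in tag set A and strongly negative in tag set B, and experiment 2 the reverse. NUP188 minus NUP170 was 1.36 ± 0.94, positive on all arrays (exact sign-flip permutation test, two-sided, p = 0.25). NUP157 encodes the paralogue of Nup170, and the 2 strains could not be compared here.

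In the rest of the inner ring list, NUP192, an essential gene, was called at -2.72 ± 0.81 (limma, adjusted p = 0.0210). Its tags gave -4.39 and -1.05, and 1 of its 6 values was at the lowest deposited ratio, so that its mean is imprecise. NIC96 did not have a value on all arrays. The inner ring members among the 10 had 0 calls of 3 in limma, with 2 at an unadjusted p under 0.05 (NUP188 and NUP53).

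The membrane ring strains differed more from each other than either varied between arrays. POM152 encodes a membrane protein with a large part in the lumen of the envelope, and its strain gave 1.04, 1.46 and 1.35. The mean was 1.28 ± 0.22 (SD, n = 3), or 2.43-fold, and limma called it (adjusted p = 0.0147). POM152 was the 1 strain of the 8 that both tags called, at 1.40 for A and 1.15 for B (limma, adjusted p = 0.0089 and 0.0451), against 11.2% of the 4293 strains with both tags. Tag set B was low in experiment 1, at 0.53 against 1.60 and 1.34. POM34 encodes a partner of Pom152 in the same ring, and its strain gave -0.06, -0.12 and 0.01. All arrays were close to 0, with a mean of -0.06 ± 0.06 (SD, n = 3; limma, adjusted p = 0.622) and a 95% confidence interval from -0.32 to 0.20. Each tag of POM34 had 1 spot per array. Tag set A gave -0.39, -0.19 and 0.18, and tag set B gave 0.27, -0.05 and -0.17. The average of the tags thus varied less (SD 0.06) than either tag (SD 0.29 and 0.22). POM152 minus POM34 was 1.10, 1.57 and 1.34 on the arrays (mean 1.34 ± 0.24; exact sign-flip permutation test, two-sided, p = 0.25). NDC1, the essential gene of the other membrane ring protein, stood at -1.67 ± 1.07 and was not called (limma, adjusted p = 0.0743), with 1 of 6 values empty.

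NUP60 could not be tested. It encodes the protein that ties the basket to the membrane, and its strain gave -1.23 in tag set B of experiment 2 and 0.82 in tag set A of experiment 3. The other 4 of its 6 values were empty, and the 2 values differed in sign, tag and experiment. Of the other basket strains, NUP1 was called at -0.87 ± 0.41 (limma, adjusted p = 0.0488). NUP2 stood at -0.18 ± 0.27, MLP1 at -0.13 ± 0.45 and MLP2 at 0.39 ± 0.12, none of them called. The tags of MLP1 gave -1.31 and 1.06 and those of MLP2 -0.27 and 1.06, and the tag difference was called for both (limma, adjusted p = 0.0444 and 0.0275), as in 7.22% of strains. Among the 8 members, 0 had a called tag difference, with 1 at an unadjusted p under 0.05 in limma (NUP188), beside 1149 of 4293 strains.

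**Figure D3:**
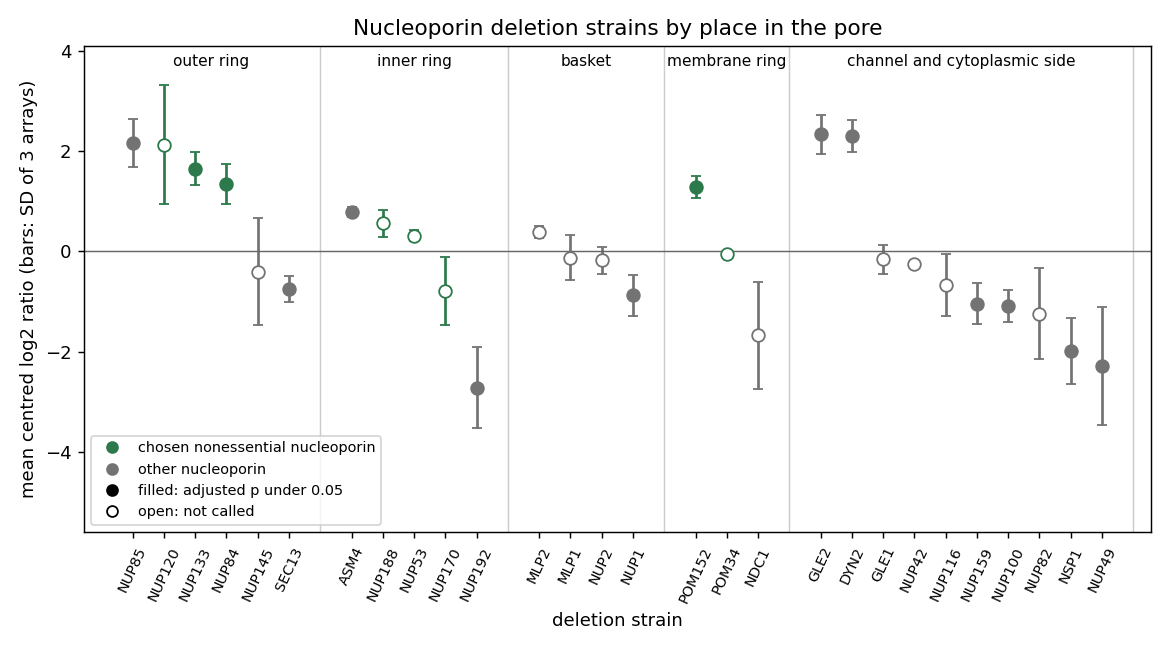
The plot shows the mean centred log2 ratio of all tested nucleoporin strains by their place in the pore, with bars for the SD of the 3 arrays, green for the chosen genes, grey for the others and filled points for strains called by limma. NUP85 lies beside the chosen Nup84 complex strains at 2.16, and GLE2 and DYN2 stand alone on the positive side of the channel and cytoplasmic group.

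The remaining nucleoporins went both ways. Of 20 other nucleoporin strains tested, 4 were called positive and 7 negative, beside 16.2% and 17.4% of all strains. Their median was -0.54. The 4 positive strains were NUP85, ASM4, GLE2 and DYN2, each called by both tags (4 of 14 with both tags, beside 11.2% of all such strains). GLE2, an mRNA export factor that binds the channel protein Nup116, gave 2.16, 2.06 and 2.78, with a mean of 2.33 ± 0.39 (limma, adjusted p = 0.0128). DYN2, the dynein light chain that also builds part of the cytoplasmic side of the pore, stood at 2.30 ± 0.33 (limma, adjusted p = 0.0118). The negative strains of the channel and the cytoplasmic side were NSP1 (-1.99), NUP49 (-2.28), NUP100 (-1.09) and NUP159 (-1.04). NSP1, NUP49 and NUP159 are essential genes, and NSP1, NUP49 and NUP100 had 1, 2 and 6 empty values. Whether tags of essential genes stem from cells without the gene was not tested.

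Lists of genes that work with the pore were set beside the 16.2% of all strains called positive and the 17.4% called negative. Of 22 strains of karyopherins, which carry cargo through the channel, and of the Ran cycle, which gives transport its direction, 3 were called positive and 4 negative, with a median of -0.76 and 16 means below 0. MSN5, an exportin, led the positive side at 2.60 ± 0.25, but its tags gave 4.84 and 0.36, a difference that was called (limma, adjusted p = 0.0156). The 4 negative strains were GSP1 at -2.20 ± 0.51, SRP1 at -2.09 ± 0.55, SXM1, an importin, at -1.07 ± 0.19 and GSP2 at -1.03 ± 0.10. Both tags called GSP1 and SXM1, and 13 of the 36 values of GSP1 were empty. Of 14 mRNA export strains 1 was positive, TEX1 at 0.52 ± 0.17, and 3 were negative, MEX67, SUB2 and THP2, with 10 means below 0. Of 18 strains of pore assembly and the nuclear envelope, limma called 0 positive, with PER33 at an unadjusted p under 0.05 on that side, and 4 negative, SNF7, BRR6, YOP1 and VPS4. In that list 11 means were below 0, against 2881 of all 5204. YOP1, which encodes a membrane-curving protein that helps pores form, stood at -1.02 ± 0.09. Of the negative strains named here, SRP1, GSP1, MEX67, SUB2 and BRR6 stand for essential genes, and these lists hold other essential genes too. From which cells their tags stem was not tested. MAD1 and MAD2, whose products dock at the pore, were called at 2.93 ± 0.20 and 2.74 ± 0.19, each above the mean of every member.

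**Figure D4:**
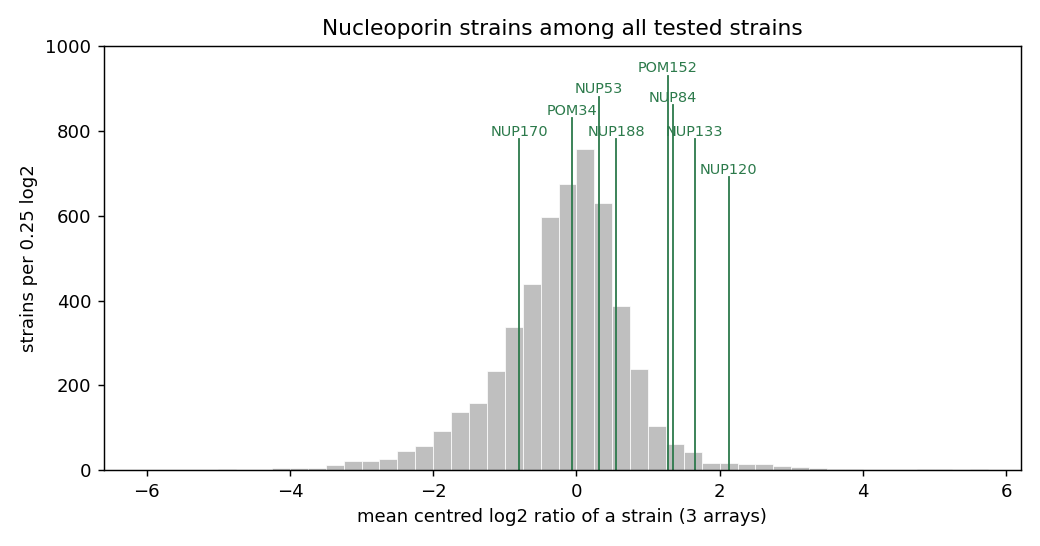
The histogram counts tested strains by mean centred log2 ratio in steps of 0.25, and lines mark the 8 nucleoporin strains. NUP84, NUP120, NUP133 and POM152 lie in the right tail, and the other 4 lie within the bulk of the distribution.

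Among all tested strains, ordered from the highest mean, NUP120 was at rank 73, NUP133 at 114, NUP84 at 173 and POM152 at 197. These ranks do not depend on a shift common to all strains. Of all tested strains, 97.6, 94.6 and 97.9% lay below NUP133 in experiments 1, 2 and 3, and 92.6, 95.9 and 95.9% lay below POM152. For NUP84 these shares were 94.4, 92.4 and 97.7%. For NUP120 they were 99.3, 87.2 and 99.1%, with experiment 2 the lowest. They were 89.9, 72.2 and 79.1% for NUP188 and 66.2, 70.0 and 76.9% for NUP53. NUP170 had the widest span of the 8, with 9.07, 45.6 and 23.0%, whereas POM34 stayed between 46.8 and 54.0%.

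With 2 arrays limma called no strain of the table, KIP1 included, so that calls could not be checked by leaving out an experiment. Without experiment 1, 2 or 3, limma called 0 of the 8 members, with 3, 6 and 3 at an unadjusted p under 0.05, and 0 strains in all, with 1876, 1993 and 1874 under that limit. The means ran from 1.13 to 1.50 for NUP84, from 1.56 to 1.84 for NUP133 and from 1.19 to 1.40 for POM152. With the tag nearer to 0 on each array in place of the tag mean, limma called 0 of the 8 members. Of these 8, 3 had an unadjusted p under 0.05, beside 1809 of all 5204 strains. Tag set A alone called 1 of the 8 (POM152), where 18.9% of strains were called positive. Tag set B alone called 5 (NUP84, NUP120, NUP133, NUP188 and POM152), where 18.2% were.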

How the data were processed

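The authors deposited log2 ratios, 1 per probe and array, read with GenePix 5.1 on a GenePix 4000B scanner, per the labels. Formula, normalization, filters and direction of the ratio are not given in the sources used here. The deposited log2 ratios had medians from -0.18 to -0.15 by array and tag set, and were thus not centred. The 36 placeholder values far above all others were left out. Spot intensities were not used here, which leaves signal over background unknown. Precision is limited by having 3 arrays.

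The platform annotation named 18794 probes, and its symbols were updated through RefSeq gene identifiers. Adding 10971 to a probe identifier gave a probe of the same gene in all 9397 pairs, and these 2 blocks were taken to hold the 2 tags of each strain. Values were centred per array and tag set, and spots, then tags, were averaged. Strains measured in every experiment were tested with lmFit on an intercept and eBayes (limma 3.58.1, R 4.3.3), two-sided, with Benjamini-Hochberg adjustment over all strains. Differences between tags were tested in the same way, and pairs of strains with an exact sign-flip test over arrays. On simulated data for the test of the mean against 0, with 5204 strains, limma recovered 40% of shifts of 1 and 71% of shifts of 2 log2. It made 9 false calls. The simulated noise was normal, and far fewer strains were shifted than were called in the data, so that recovery in the data may differ. The text names all 10 members, nucleoporins of the same subcomplex, and called strains of textbook lists of pore and transport genes. The members and lists were chosen with earlier results of these data known. NUP145, NUP2, MLP1, MLP2, NDC1 and the empty entries NIC96 and SEH1 are named as parts of those subcomplexes. Tables and plots used pandas 2.3.3, numpy 2.4.6, scipy 1.17.1 and matplotlib 3.10.9 in Python 3.11.15. Alternatives are given in the closing section.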

Additional observations from a re-analysis of the deposited data

How the results depend on the processing

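Each log2 ratio already pairs the 2 pools within 1 array, and the arrays form 1 group, so that no further pairing was possible. Experiments left out 1 at a time gave 0 to 0 calls among all strains, positive or negative, among the members and for tag differences, since fewer arrays were tested and no strain of the table passed, with 834 to 914 tag differences at an unadjusted p under 0.05. The means then ran from 1.13 to 1.50 for NUP84, from 1.56 to 1.84 for NUP133 and from 1.19 to 1.40 for POM152. The tag nearer to 0 gave 751 calls (433 positive, 318 negative) and 0 members, with NUP84 at 1.04, NUP133 at 1.10, POM152 at 1.06 and NUP170 at 0.032. With 5-FOA as a covariate, which takes 1 residual degree of freedom, there were 228 calls (91 and 137) and 0 members, at unchanged means (NUP84 1.35, NUP133 1.65, POM152 1.28) and adjusted p from 0.0538 to 0.0576. Tag set A alone called 1 member, with NUP84 at 1.08 and NUP133 at 1.74. Tag set B alone called 5 members, with NUP120 at 2.96, NUP188 at 0.84 and POM34 at 0.015. Strains with both tags on all arrays gave 5 member calls, with NUP120 (2.13) and NUP188 (0.56) added at unchanged means. In that setting 4293 strains were tested and 1929 called. The unadjusted p of limma also fell, from 0.0209 to 0.0144 for NUP120 and from 0.0233 to 0.0160 for NUP188. The values of both strains were the same in that setting, and only the set of strains given to eBayes differed. A prior with a trend over the number of values added NUP120 (2.13). POM34 also turned to 0.015 with the tag nearer to 0. NUP84 minus NUP133 turned to 0.039 in tag set B and NUP120 minus NUP133 to -0.44 in tag set A. With 1 experiment left out, tag set A minus tag set B ran from -0.56 to 0.96 for NUP133, from -0.13 to 0.51 for POM152 and from -0.40 to 0.11 for POM34, with the sign turned without experiment 1. Without centring, 32.3% of calls were positive against 48.2%, and 602 strains were positive and 1261 negative. NUP53 kept its side and its lack of a call under all 15 alternatives. The cause was not tested where none is given.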
